A study of Mus musculus with 9 samples.

Results

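Cytochrome P450 enzymes of families 1 to 4 were examined in mouse kidney RNA. The members are the protein-coding genes of the deposited table whose symbol begins with Cyp, a family number of 1 to 4, a subfamily letter and a gene number. They number 80 genes in 21 subfamilies, out of 54532 genes in the table. All 3 groups, of 3 libraries each, were kidneys of male C57BL/6J mice at an age of 4 months. Unloaded mice given 4-phenylbutyric acid (4-PBA, a chemical chaperone) received 100 mg per kg per day by intraperitoneal injection (PBA1 to PBA3), unloaded mice received vehicle (HU1 to HU3), and ground controls were neither unloaded nor treated (GC1 to GC3). Hindlimb unloading keeps the hind limbs off the ground, as a model of disuse and microgravity. The study asked how unloading and 4-PBA bear on kidney gene expression. Unloaded mice and ground controls also differ in the vehicle, so unloading and vehicle cannot be told apart here. The labels do not say whether the libraries of a group came from separate animals, and the p-values measure the spread between these libraries, which may be technical.

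P450 enzymes are haem proteins that insert oxygen into fats, steroids, drugs and other foreign compounds, mostly in the endoplasmic reticulum, with electrons supplied by P450 reductase. In the kidney they sit largely in the proximal tubule, where most of the filtered salt, glucose and amino acids is taken back. Members of family 4 hydroxylate the far end of fatty acids, which turns arachidonic acid into 20-HETE, a lipid that constricts vessels and alters salt transport. Members of the 2C and 2J subfamilies turn arachidonic acid into epoxides, which act on vessels and on sodium transport. Several mouse P450 genes differ by sex and respond to androgens.

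The libraries held 7595631 to 15141784 reads assigned to genes, as recovered from the deposited values. Mitochondrial genes took 15.2%, 13.7% and 67.1% of these reads in the 4-PBA libraries, 68.7%, 79.3% and 63.7% in the unloaded libraries and 18.9%, 14.8% and 49.7% in the ground control libraries. PBA3 and GC3 stood apart from the other libraries of their groups in this measure, with PBA3 among the unloaded libraries. Unloaded libraries had 1568888 to 3037972 reads outside the mitochondrial genome, against 5780141 to 12893802 in ground controls. A listed 0 allows up to 3 reads, which for a gene of 2000 bases is 0.221 to 0.482 FPKM in the unloaded libraries and covers counting error only. Values are FPKM (reads per gene length and per library constant), given in the order of the library numbers. The kidney label was checked against 15 proximal tubule markers, of which none was at 0 in any library.

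Of the 80 genes, 18 were at 0 in all 9 libraries, 33 more had some reads but were too low to test, and 29 in 13 subfamilies reached 1 FPKM in at least 3 libraries. Among these 29, 6 reached 1 FPKM in fewer than 2 unloaded libraries: Cyp2f2, Cyp2j7, Cyp2j8, Cyp2j9, Cyp2j13 and Cyp4a12b. Cyp2j9, Cyp2j13 and Cyp4a12b are among the genes called lower in unloaded mice below, and Cyp2j13 is also called higher with 4-PBA. These calls are for genes that entered the test through the groups where they are high. Most of these 6 passed through their level in the other groups (Cyp2j8 needed HU2 as well), so the counts over the 29 genes describe them and are not evidence of a shared change. By mean over all 9 libraries the highest were Cyp4b1, Cyp2e1, Cyp2j5, Cyp2a4 and Cyp4a10, with means of 269, 230.0, 142, 126 and 71.9 FPKM. FPKM is divided by gene length, so these levels can be set against each other.

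**Figure D1:**
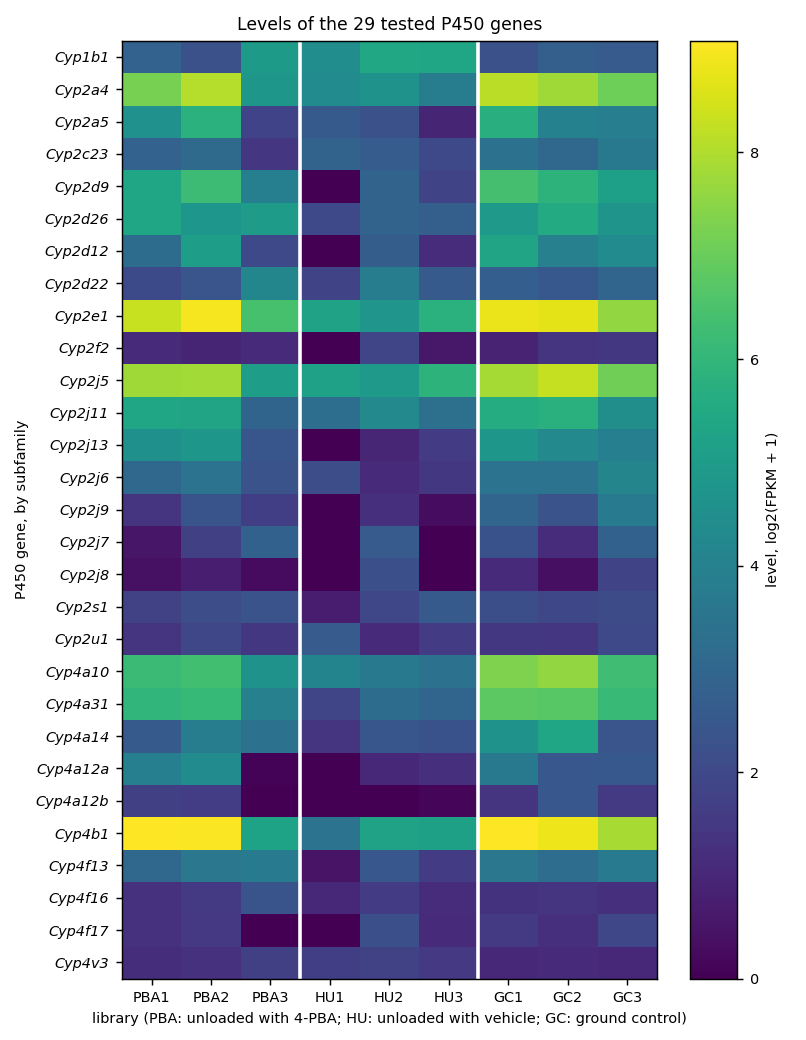
Level of each of the 29 tested P450 genes, log2(FPKM + 1), in rows by subfamily, in each of the 9 libraries (columns). Most of the bright rows are darker in HU1 to HU3 and in PBA3, and Cyp1b1 is brighter there.

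Starts of genes that carry the results are printed first, as RefSeq gives them on GRCm38.p6 (the mm10 assembly), from 250 bases before to 50 bases after the start. Such a stretch was held for 18 of the 29 tested genes. Cyp2d9, Cyp2d26 and Cyp2j13 passed the test in both comparisons below, Cyp4b1 has the highest mean level, and Cyp1b1 rose with unloading. Cyp4a31, which also passed in both, has no entry. Capitals mark matches, on either strand, to TATAA (the TATA box core), AGGTCA (bound by many nuclear receptors), AGAACA (bound by the glucocorticoid receptor), CAAAGTCC (an HNF4A core), GTTAAT (an HNF1 core) or GCGTG (the aryl hydrocarbon receptor core). A match is only a match of letters.
Cyp2d9 (chr15:82452127-82452426, plus strand): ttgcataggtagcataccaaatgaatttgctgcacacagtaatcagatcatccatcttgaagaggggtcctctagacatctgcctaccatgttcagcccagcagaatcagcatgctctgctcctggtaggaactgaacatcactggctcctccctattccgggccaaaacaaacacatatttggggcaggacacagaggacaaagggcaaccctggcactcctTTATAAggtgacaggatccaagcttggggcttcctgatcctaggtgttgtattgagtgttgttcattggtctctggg
Cyp2d26 (chr15:82794196-82794495, minus strand): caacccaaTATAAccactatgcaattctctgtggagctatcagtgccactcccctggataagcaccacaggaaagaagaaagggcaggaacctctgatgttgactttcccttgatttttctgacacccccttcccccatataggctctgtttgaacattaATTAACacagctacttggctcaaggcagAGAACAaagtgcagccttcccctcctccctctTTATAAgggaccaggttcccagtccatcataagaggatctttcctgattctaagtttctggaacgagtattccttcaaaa
Cyp2j13 (chr4:96077491-96077790, minus strand): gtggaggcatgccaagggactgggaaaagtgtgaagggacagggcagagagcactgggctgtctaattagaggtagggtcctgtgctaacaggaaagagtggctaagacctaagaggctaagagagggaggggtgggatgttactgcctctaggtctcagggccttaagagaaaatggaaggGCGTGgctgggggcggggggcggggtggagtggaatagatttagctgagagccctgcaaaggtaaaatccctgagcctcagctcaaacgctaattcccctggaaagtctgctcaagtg
Cyp4b1 (chr4:115647672-115647971, minus strand): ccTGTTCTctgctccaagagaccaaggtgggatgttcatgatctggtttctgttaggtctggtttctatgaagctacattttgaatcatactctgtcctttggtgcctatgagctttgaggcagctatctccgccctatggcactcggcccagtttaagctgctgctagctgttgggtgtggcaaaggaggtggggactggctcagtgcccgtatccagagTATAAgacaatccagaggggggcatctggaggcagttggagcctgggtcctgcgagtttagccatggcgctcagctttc
Cyp1b1 (chr17:79715012-79715311, minus strand): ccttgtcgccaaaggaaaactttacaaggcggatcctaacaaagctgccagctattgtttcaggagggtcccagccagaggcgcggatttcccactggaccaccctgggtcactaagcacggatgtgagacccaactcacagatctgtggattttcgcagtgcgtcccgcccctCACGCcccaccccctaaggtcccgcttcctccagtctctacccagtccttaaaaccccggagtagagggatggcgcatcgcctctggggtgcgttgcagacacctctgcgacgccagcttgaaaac
The TATA box core began 26 bases before the start in Cyp2d9 and 29 bases before it in Cyp2d26 and Cyp4b1. In Cyp2d9 and Cyp2d26 it overlaps its own reverse complement. Cyp2d26 had a further copy 242 bases upstream. Cyp2d26 also held AGAACA at 62 and GTTAAT at 90 bases upstream, and Cyp4b1 held AGAACA at 248. Cyp2j13 and Cyp1b1 held GCGTG, at 68 and 76 bases upstream, and no other of the 6. The stretch for Cyp2d9 starts inside the gene as the deposited table places it, and of 2 listed starts of Cyp2j13 the first is shown. TATAA was in 7 of the 18 genes and in 25.5% of all 27025 promoters of the same length. AGAACA was in 6 of 18 and in 19% of all, AGGTCA in 4 and 16%, GTTAAT in 3 and 7.2%, and GCGTG in 5 and 32.5%. CAAAGTCC was in Cyp2a4 and Cyp2a5, and in 1.44% of all.

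The comparison of unloaded mice with ground controls asked how kidney expression differed after unloading. Unloading was accompanied by lower RNA of 13 P450 genes of the 2A, 2D, 2E, 2J, 4A, 4B and 4F subfamilies, among them the abundant Cyp4b1, Cyp2e1, Cyp2a4 and Cyp4a10, and by higher RNA of Cyp1b1. In the 13, the unloaded mean was 1.53% to 22.2% of the ground control mean. In limma (adjusted p under 0.05 over all 12642 genes tested), 13 of the 29 P450 genes were lower, where 4.9% of all genes tested were lower. A single one of the 29 was higher, where 5.32% of all genes tested were higher, and in either direction 10.2% of all genes passed. Of the 29, 19 had an unadjusted p under 0.05, as had 29.8% of all genes tested. Without overlap between the groups, 18 of the 29 were lower, where 19.4% of all genes tested were, and 2 were higher, where 18.3% were. The median log2 difference was -2.09 over the 29 genes and -0.03 over all genes tested. These are tissue samples, in which fewer cells of a type and less RNA per cell cannot be told apart.

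**Figure D2:**
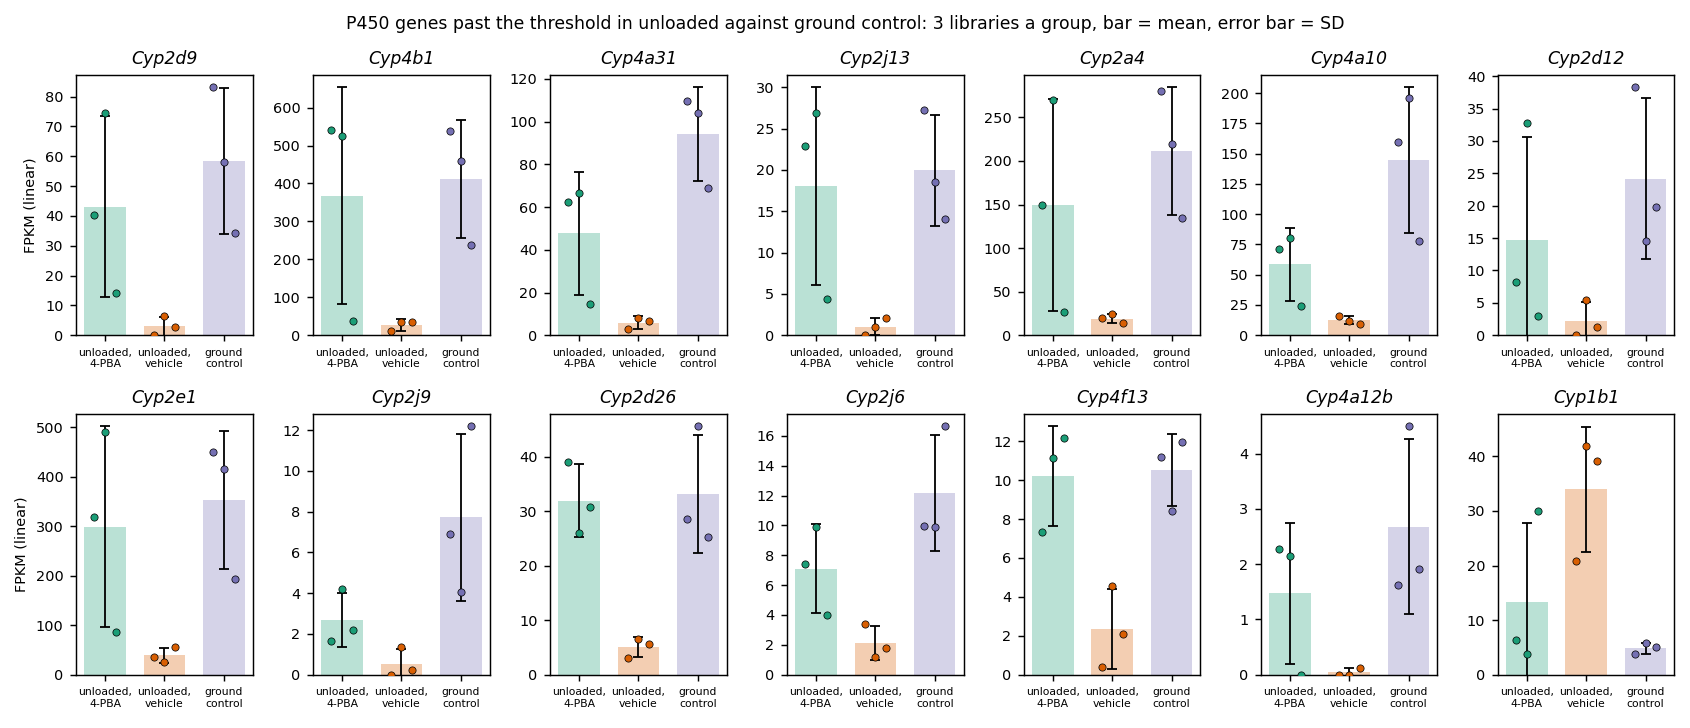
FPKM (linear axis) of the 14 P450 genes past the threshold in unloaded against ground control. Points are libraries, bars are means and error bars are SD (n = 3 each). In 13 panels all 3 unloaded libraries lie below all 3 ground controls, and in the Cyp1b1 panel they lie above.

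In family 4, Cyp4b1 (ENSMUSG00000028713; mm10 chromosome 4, 115624725 to 115647723, minus strand) oxidises fatty acids and small foreign compounds. It had 9.87, 36.2 and 35.0 FPKM in unloaded mice, against 538, 459.5 and 238 FPKM in ground controls (log2 difference -4.0 ± 0.96, SE; limma adjusted p = 0.0321). The highest unloaded value was below the lowest ground control, and GC3 was the lowest of the ground controls. Cyp4a10 (ENSMUSG00000066072; mm10 chromosome 4, 115518264 to 115533649, plus strand), a fatty acid hydroxylase induced through the receptor PPAR alpha, had 16.04, 11.7 and 9.65 FPKM in unloaded mice, against 159, 196 and 78.2 FPKM in ground controls (log2 difference -3.36 ± 0.50, SE; limma adjusted p = 0.00870). Its neighbour Cyp4a31 (ENSMUSG00000028712; mm10 chromosome 4, 115563649 to 115579015, plus strand) had 2.74, 8.20 and 6.87 FPKM in unloaded mice, against 109, 104 and 69.0 FPKM in ground controls (log2 difference -3.85 ± 0.57, SE; limma adjusted p = 0.00870). In both genes the 3 unloaded libraries were close together and far below the ground controls. Cyp4a14, also induced through PPAR alpha, had 1.67, 4.45 and 3.85 FPKM in unloaded mice, against 24.1, 39.5 and 4.32 FPKM in ground controls. GC3 lay within the range of the unloaded libraries, the groups overlapped, and the gene did not pass (log2 difference -2.09 ± 0.68, SE; limma adjusted p = 0.0784).

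Cyp4a12a, the main 20-HETE synthase of the male mouse kidney, had 0, 1.06 and 1.40 FPKM in unloaded mice, against 11.8, 4.59 and 4.60 FPKM in ground controls. The groups did not overlap and the gene did not pass the test. Cyp4a12b had 0, 0 and 0.123 FPKM in unloaded mice, against 1.63, 4.50 and 1.91 FPKM in ground controls and passed (log2 difference -1.74 ± 0.48, SE; limma adjusted p = 0.0491), on 0, 0 and 2 reads in HU1, HU2 and HU3, so its fitted difference depends on the value added before the logarithm. These genes are near-identical copies: 35.8% of the 100-base stretches of the Cyp4a12a transcript and 36.2% of those of Cyp4a12b occur in the other gene, so reads could be split between them. Cyp4f13 (ENSMUSG00000024055; mm10 chromosome 17, 32924688 to 32947402, minus strand), of a subfamily that inactivates leukotrienes and other lipid mediators, had 0.402, 4.53 and 2.08 FPKM in unloaded mice, against 11.2, 8.43 and 12.0 FPKM in ground controls (log2 difference -1.99 ± 0.45, SE; limma adjusted p = 0.0279). HU2 was the highest unloaded library and GC2 the lowest ground control, without overlap.

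Among the epoxygenases, Cyp2j5, an arachidonic acid epoxygenase of the proximal tubule, was the highest of its subfamily. It had 36.1, 28.2 and 57.6 FPKM in unloaded mice, against 229, 309 and 136 FPKM in ground controls, without overlap, and missed the threshold (log2 difference -2.42 ± 0.70, SE; limma adjusted p = 0.0554). Cyp2j13 (ENSMUSG00000028571; mm10 chromosome 4, 96027534 to 96077546, minus strand) had 0, 0.959 and 2.07 FPKM in unloaded mice, against 27.2, 18.6 and 14.1 FPKM in ground controls (log2 difference -3.48 ± 0.63, SE; limma adjusted p = 0.0157). Its unloaded mean was 5.07% of the ground control mean. Cyp2j6 (ENSMUSG00000052914; mm10 chromosome 4, 96516138 to 96553661, minus strand) had 3.39, 1.16 and 1.76 FPKM in unloaded mice, against 9.98, 9.88 and 16.6 FPKM in ground controls (log2 difference -2.11 ± 0.38, SE; limma adjusted p = 0.0157). Cyp2j9 (ENSMUSG00000015224; mm10 chromosome 4, 96568429 to 96591578, minus strand) had 0, 1.35 and 0.221 FPKM in unloaded mice, against 6.88, 4.07 and 12.2 FPKM in ground controls (log2 difference -2.51 ± 0.45, SE; limma adjusted p = 0.0154). GC3, the lowest ground control for 8 of the 13 lowered genes, was the highest for Cyp2j6 and Cyp2j9. Cyp2j11 had 8.65, 18.4 and 9.15 FPKM in unloaded mice, against 48.5, 53.2 and 21.6 FPKM in ground controls and did not pass (log2 difference -1.67 ± 0.65, SE; limma adjusted p = 0.123). Cyp2c23, whose rat counterpart is the main epoxygenase of the kidney, had 6.44, 5.21 and 3.01 FPKM in unloaded mice, against 9.67, 7.20 and 11.9 FPKM in ground controls; the groups did not overlap, with little space between them, and the gene did not pass. No window of 100 bases was shared with another gene by any tested Cyp2j gene or by Cyp2c23.

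In the 2D subfamily, Cyp2d9 (ENSMUSG00000068086; mm10 chromosome 15, 82433437 to 82456845, plus strand), a steroid hydroxylase that is male-biased in mouse liver, had 0, 6.41 and 2.61 FPKM in unloaded mice, against 83.2, 58.0 and 34.3 FPKM in ground controls (log2 difference -4.23 ± 0.76, SE; limma adjusted p = 0.0157). It had no read in HU1. Cyp2d12 (ENSMUSG00000096852; mm10 chromosome 15, 82555072 to 82560403, plus strand) had 0, 5.47 and 1.22 FPKM in unloaded mice, against 38.3, 14.6 and 19.7 FPKM in ground controls (log2 difference -3.26 ± 0.83, SE; limma adjusted p = 0.0381), with HU2 above the other unloaded libraries. Cyp2d26 (ENSMUSG00000022445; mm10 chromosome 15, 82790101 to 82794294, minus strand) had 2.99, 6.45 and 5.68 FPKM in unloaded mice, against 28.6, 45.6 and 25.3 FPKM in ground controls (log2 difference -2.50 ± 0.33, SE; limma adjusted p = 0.00658), the smallest adjusted p of the 29 genes. Cyp2d22, a mouse counterpart of the human drug-metabolising CYP2D6, went apart from these: it had 2.66, 13.2 and 5.02 FPKM in unloaded mice, against 5.53, 4.61 and 6.71 FPKM in ground controls, with overlapping groups, and did not pass. Its range in the unloaded libraries spanned that of the ground controls.

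Cyp2e1 (ENSMUSG00000025479; mm10 chromosome 7, 140763739 to 140774987, plus strand), which oxidises ethanol and other small molecules, had 36.2, 25.6 and 55.1 FPKM in unloaded mice, against 449, 414 and 194 FPKM in ground controls (log2 difference -3.12 ± 0.63, SE; limma adjusted p = 0.0205). Cyp2a4 (ENSMUSG00000074254; mm10 chromosome 7, 26307169 to 26315088, plus strand), a testosterone hydroxylase, had 19.7, 24.0 and 13.6 FPKM in unloaded mice, against 280.4, 219.8 and 134 FPKM in ground controls (log2 difference -3.37 ± 0.71, SE; limma adjusted p = 0.0233). Its close copy Cyp2a5, a coumarin hydroxylase, had 5.01, 3.72 and 0.924 FPKM in unloaded mice, against 52.5, 14.8 and 13.8 FPKM in ground controls, without overlap, and did not pass (log2 difference -2.61 ± 0.93, SE; limma adjusted p = 0.0991). The ground controls of Cyp2a5 were themselves far apart, with GC1 the highest. Of the 100-base stretches of Cyp2a4 and Cyp2a5, 11.2% and 14.4% occur in another gene, mainly in each other, so the split of reads between these is uncertain. The same share was 12.7% in Cyp4a10 and 8.22% in Cyp4a31, mostly shared with Cyp4a32. It was 9.86% in Cyp2d9, 3.79% in Cyp2d12, 4.46% in Cyp4b1 and 1.5% or less in the other called genes apart from Cyp4a12b, given above.

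Cyp1b1 (ENSMUSG00000024087; mm10 chromosome 17, 79706953 to 79715041, minus strand) was the P450 gene that rose. It encodes an enzyme of oestrogen and retinoid metabolism, is found in vessel-associated and stromal cells, and is induced through the aryl hydrocarbon receptor. It had 20.9, 42.0 and 39.2 FPKM in unloaded mice, against 3.77, 5.74 and 5.08 FPKM in ground controls (log2 difference 2.53 ± 0.61, SE; limma adjusted p = 0.0320). The lowest unloaded library, HU1, was above the highest ground control. Cyp1b1 passed under 15 of 23 alternatives; it did not with scaling by total reads (log2 difference 1.55, limma adjusted p = 0.0643), with no filter (limma adjusted p = 0.101), with the mitochondrial share as a covariate (limma adjusted p = 0.311), or without HU2, HU3, GC1, GC2 or GC3 (limma adjusted p = 0.0726 to 0.120). Cyp1a1, the gene best known for induction through that receptor, was below 1 FPKM in all 9 libraries, and Cyp1a2 was at 0 in all of them. Cyp4v3, the counterpart of the human fatty acid hydroxylase CYP4V2, had 2.20, 2.45 and 1.86 FPKM in unloaded mice, against 1.012, 1.17 and 1.08 FPKM in ground controls. These groups did not overlap either, at a low level; the gene did not pass (log2 difference 0.60 ± 0.24, SE; limma adjusted p = 0.136), and its difference was -0.0504 when libraries were scaled by total reads.

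The remaining tested genes did not pass and overlapped between the groups. Cyp2s1 had 0.610, 2.86 and 4.96 FPKM in unloaded mice, against 3.58, 2.93 and 3.31 FPKM in ground controls, and Cyp2u1, a fatty acid hydroxylase, had 5.05, 1.10 and 2.05 FPKM in unloaded mice, against 1.75, 1.74 and 3.03 FPKM in ground controls. HU1 was the lowest unloaded library for Cyp2s1 and the highest for Cyp2u1. Cyp2f2, a lung enzyme that activates naphthalene, had 0, 2.70 and 0.510 FPKM in unloaded mice, against 0.888, 1.67 and 1.76 FPKM in ground controls. Cyp2j7 had 0, 5.09 and 0 FPKM in unloaded mice, against 3.90, 1.24 and 6.03 FPKM in ground controls, so that a single unloaded library, HU2, held all its reads there. Cyp2j8, Cyp4f16 and Cyp4f17 ranged from 0 to 3.61 FPKM in unloaded mice and from 0.304 to 2.86 FPKM in ground controls. In all, 10 of the 29 genes had an unadjusted limma p of 0.05 or more.

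The count depended on the libraries and on the fit. In place of 14 P450 genes and 1292 of 12642 genes in all, 9 passed without HU1 (582 of 12026 in all), 7 without HU3 (354 of 11970), 1 without GC1 (79 of 12494), 5 without GC2 (234 of 12509) and 4 without GC3 (127 of 12339). With no filter on low values 3 passed (238 of 30407), and 18 passed without both GC3 and PBA3 (1570 of 11679). With the mitochondrial share as a covariate 1 passed, Cyp4a10 (99 of 12642). In that fit the log2 difference was smaller in size than above for every called gene except Cyp2j9 (-2.91) and Cyp4f13 (-2.45). It was -0.62 for Cyp4a12b, -1.37 for Cyp2e1, -1.58 for Cyp4b1, -1.58 for Cyp2a4 and 1.13 for Cyp1b1. For Cyp2j6 it was -1.75, for Cyp2d26 -2.33 and for Cyp4a31 -2.55.

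**Figure D3:**
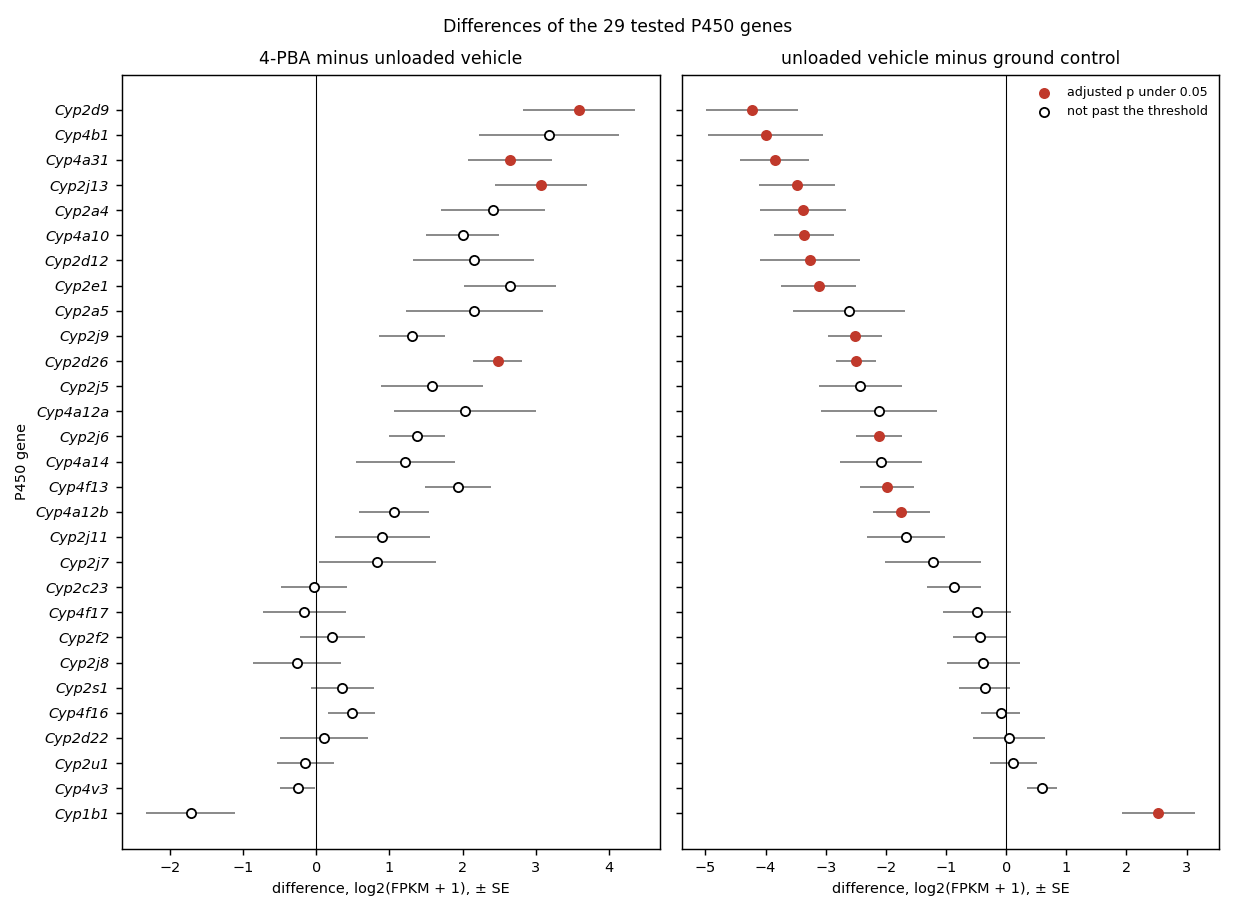
Difference on the log2(FPKM + 1) scale of each of the 29 tested P450 genes, with its SE, for 4-PBA minus unloaded (left) and unloaded minus ground control (right). Filled points passed the limma threshold (4 on the left, 14 on the right). Both panels use the same unloaded libraries.

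Unloaded mice given 4-PBA were compared with those given vehicle to see which genes moved with the drug. Higher RNA with 4-PBA was found for Cyp2d9, Cyp2d26, Cyp2j13 and Cyp4a31, at 6.34 to 17.9 times the mean without it. In limma 4 of the 29 P450 genes were higher, where 1.16% of all genes tested were higher, and 0 were lower, where 1.53% of all genes tested were lower. In either direction 2.69% of all genes passed. At an unadjusted p under 0.05 there were 15 of the 29, and 20.1% of all genes tested. The median log2 difference was 1.31 over the 29 genes and 0.02 over all genes tested. This comparison uses the same unloaded libraries as the first, so its direction is not separate evidence.

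Cyp2d26 had 39.1, 26.03 and 30.7 FPKM with 4-PBA, against 2.99, 6.45 and 5.68 FPKM without it (log2 difference 2.48 ± 0.33, SE; limma adjusted p = 0.00949). All 3 treated libraries, PBA3 included, were far above the unloaded ones. Cyp2d9 had 40.3, 74.6 and 14.1 FPKM with 4-PBA, against 0, 6.41 and 2.61 FPKM without it (log2 difference 3.60 ± 0.76, SE; limma adjusted p = 0.0432). Cyp2j13 had 22.9, 26.9 and 4.45 FPKM with 4-PBA, against 0, 0.959 and 2.07 FPKM without it (log2 difference 3.08 ± 0.63, SE; limma adjusted p = 0.0403). Cyp4a31 had 62.1, 66.4 and 14.6 FPKM with 4-PBA, against 2.74, 8.20 and 6.87 FPKM without it (log2 difference 2.65 ± 0.57, SE; limma adjusted p = 0.0441). In these 3 genes PBA3 was the lowest treated library and still above every unloaded one.

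PBA3 stood apart in many other members. Cyp4b1 had 541, 525 and 37.1 FPKM with 4-PBA, against 9.87, 36.2 and 35.0 FPKM without it. In PBA3 it was just above HU2, while PBA1 and PBA2 were far higher, and the gene did not pass (log2 difference 3.18 ± 0.96, SE; limma adjusted p = 0.115). Cyp2e1 had 319, 491 and 86.0 FPKM with 4-PBA, against 36.2, 25.6 and 55.1 FPKM without it, without overlap, and missed the threshold (log2 difference 2.65 ± 0.63, SE; limma adjusted p = 0.0579). Cyp2a4 had 149, 270.5 and 27.1 FPKM with 4-PBA and Cyp2j5 had 222, 228 and 32.7 FPKM. For Cyp2a4, PBA3 was just above HU2, and for Cyp2j5 it lay within the unloaded range. Neither passed, with limma adjusted p = 0.107 for Cyp2a4 and 0.241 for Cyp2j5. Cyp4a12a had 14.2, 20.0 and 0.0662 FPKM with 4-PBA, that is 1 read in PBA3, against 0.82 ± 0.73 FPKM without it (SD, n = 3). Cyp1b1 had 6.32, 3.73 and 30.0 FPKM with 4-PBA, against 20.9, 42.0 and 39.2 FPKM without it, so that PBA3 lay among the unloaded libraries, and did not pass (log2 difference -1.71 ± 0.61, SE; limma adjusted p = 0.163). Of the 13 genes lowered in unloaded mice, PBA1 and PBA2 were above every unloaded library in 13 and PBA3 in 11. PBA3 was also below every ground control in 11.

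Cyp4f13 did not follow that pattern. It had 7.34, 11.2 and 12.2 FPKM with 4-PBA, against 0.402, 4.53 and 2.08 FPKM without it, with PBA3 the highest of the treated libraries, and missed the threshold (log2 difference 1.93 ± 0.45, SE; limma adjusted p = 0.0548). Cyp2d22 had 3.16, 4.24 and 17.03 FPKM with 4-PBA, against 2.66, 13.2 and 5.02 FPKM without it. Here PBA3 and HU2 were the highest of the 9 and HU1 was the lowest, each a library with a high mitochondrial share. Cyp4a10 had 71.6, 80.4 and 24.3 FPKM with 4-PBA, against 16.04, 11.7 and 9.65 FPKM without it, without overlap (log2 difference 2.00 ± 0.50, SE; limma adjusted p = 0.0660). In all, 12 of the 29 genes were above the unloaded group without overlap, where 10.1% of all genes tested were, and 0 were below it, where 10.2% were.

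The 4 calls depended on the libraries and on the fit, and they were not equally stable. Of 23 alternatives, Cyp2d26 passed in 18, Cyp2d9 in 10, and Cyp2j13 and Cyp4a31 in 8 each. In limma 0 passed without HU1, without HU3, with the 6 libraries compared alone, with no filter on low values, or with the mitochondrial share as a covariate (11 to 16 genes had an unadjusted p under 0.05 in these fits). A single gene, Cyp2d26, passed without PBA1, PBA2, GC1, GC2 or GC3, and 15 passed without PBA3, of which 14 were higher and Cyp1b1 was lower. Over all genes 1 to 121 passed in the fits with 0 P450 genes, 37 to 139 in those with 1, and 1383 of 11994 without PBA3.

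The comparison of 4-PBA-treated unloaded mice with ground controls asked how far the treated animals differed from those that were not unloaded. None of the 29 P450 genes passed in limma (0 of 12642 genes, 0% of all tested). At an unadjusted p under 0.05 there were 2 of the 29, Cyp2j9 and Cyp4a10, and 1.31% of all genes tested. The limma-voom test of the recovered reads called 0 as well. For Cyp4a10 the values were 71.6, 80.4 and 24.3 FPKM with 4-PBA, against 159, 196 and 78.2 FPKM in ground controls. GC3 lay between PBA1 and PBA2, so the groups overlapped. Cyp4a31 was lower with 4-PBA without overlap, at 62.1, 66.4 and 14.6 FPKM, against 109, 104 and 69.0 FPKM in ground controls. Cyp4v3 was higher without overlap, at 1.30, 1.47 and 2.27 FPKM, against 1.012, 1.17 and 1.08 FPKM in ground controls. One gene in each direction compares with 3.63% of all genes tested that were lower and 4.37% that were higher without overlap. With 3 libraries a group and PBA3 apart from PBA1 and PBA2, a p that misses the threshold does not show that treated mice and ground controls were alike.

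The P450 RNA was also measured as a share of each library and by its make-up. Reads of all 80 genes were 0.736%, 0.815% and 0.218% of the reads outside the mitochondrial genome with 4-PBA, 0.117%, 0.158% and 0.169% in unloaded mice and 0.896%, 0.843% and 0.476% in ground controls. The 3 unloaded libraries had the lowest shares, and PBA3 was next. The widest interval relative to its share, that of HU2, was a 95% Wilson interval of 0.152% to 0.165%. These shares depend on leaving out mitochondrial reads, whereas shares within the 80 genes do not depend on how libraries are scaled. Of the summed FPKM of the 80 genes, Cyp4b1 made up 33.7%, 26.1% and 9.63% in the treated libraries, 5.21%, 12.6% and 12.9% in unloaded ones and 25.0%, 22.8% and 22.0% in ground controls. Cyp1b1 made up 0.393%, 0.186% and 7.79% with 4-PBA, 11.0%, 14.6% and 14.4% in unloaded mice and 0.176%, 0.285% and 0.470% in ground controls. The share of Cyp4b1 was thus lower and that of Cyp1b1 higher in each unloaded library than in any ground control. The Cyp2j genes together took 18.4%, 15.4% and 14.6% with 4-PBA, 25.4%, 20.5% and 26.1% in unloaded mice and 15.2%, 19.7% and 19.4% in ground controls. Although several Cyp2j genes fell, their share of the P450 RNA in each unloaded library was above that in every other library. The sum of the 80 genes was 189 to 287 FPKM in unloaded mice, against 1081 to 2147 FPKM in ground controls. A share thus also rises where a gene falls less than the rest. Cyp2e1 took 19.9%, 24.4% and 22.3% with 4-PBA, 19.1%, 8.92% and 20.3% in unloaded mice and 20.9%, 20.6% and 17.9% in ground controls, which overlapped.

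**Figure D4:**
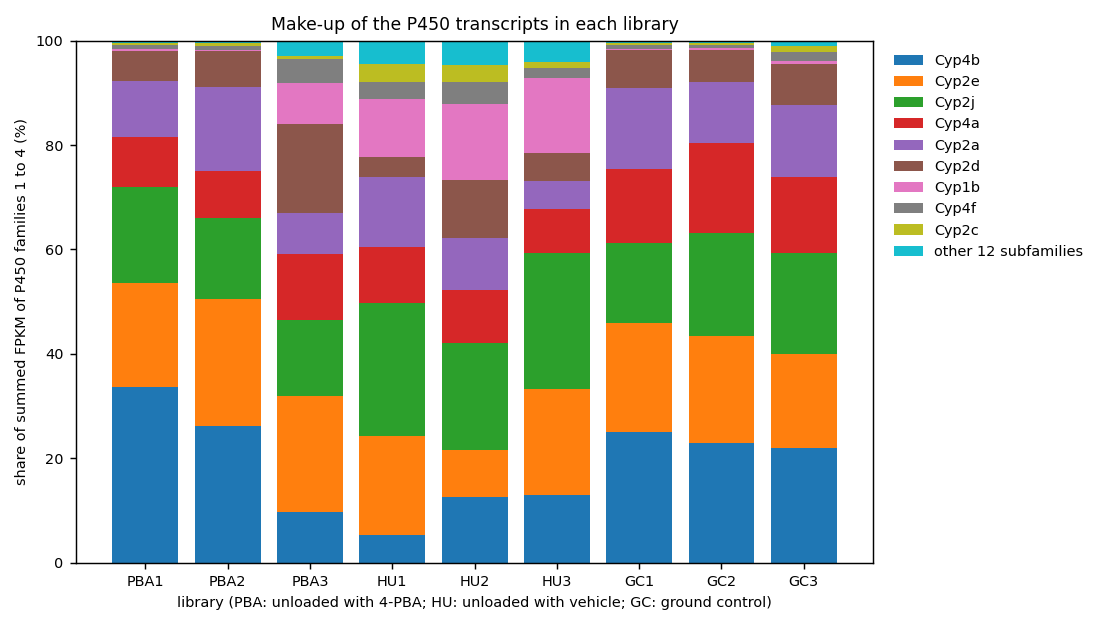
Share (%) of the summed FPKM of the 80 P450 genes taken by each subfamily, in each library. Cyp1b (Cyp1b1) takes 11.0% to 14.6% in the unloaded libraries and 7.79% in PBA3, and under 0.5% in the other 5.

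Markers of the proximal tubule and of other cell types were summed in each library. Proximal tubule markers summed to 2081, 2236 and 704 FPKM with 4-PBA, 265, 588 and 374 FPKM in unloaded mice and 2479, 2112 and 1989 FPKM in ground controls. In limma 10 of these 15 markers fell and 0 rose with unloading, where 4.9% of all genes tested fell and 5.32% rose. Without overlap, 12 of the 15 were lower in unloaded mice and 1, Pdzk1, was higher, where 19.4% and 18.3% of all genes tested were. Pdzk1 had 20.6, 36.4 and 37.1 FPKM in unloaded mice, against 12.0, 16.3 and 7.73 FPKM in ground controls. With 4-PBA 4 of the 15 markers rose and 0 fell, where 1.16% of all rose and 1.53% fell. The summed P450 level per summed marker level was 0.547 to 0.899 with 4-PBA, 0.488 to 0.727 in unloaded mice and 0.543 to 0.953 in ground controls, and these ranges overlapped. Stroma and fibroblast markers summed to 44.4 to 452 FPKM with 4-PBA, the highest being PBA3, 161 to 308 FPKM in unloaded mice and 47.5 to 108 FPKM in ground controls. Of 9 tested, Pdgfra passed as higher with unloading, as did 5.32% of all genes tested, and 0 passed as lower. Without overlap, 7 of the 9 were higher in unloaded mice and 1, Acta2, was lower, where 18.3% and 19.4% of all genes tested were. Endothelial markers summed to 95.5 to 194 FPKM with 4-PBA, 238 to 325 FPKM in unloaded mice and 87.1 to 125 FPKM in ground controls. Of 9 tested, 2 rose with unloading, Eng and Plvap, which had the highest unloaded means of the list (125 and 108 FPKM). Egfl7 was lower in unloaded mice without overlap, at 9.59, 9.78 and 6.55 FPKM, against 12.4, 11.6 and 21.3 FPKM. The other tested endothelial markers overlapped between these groups. The 4 libraries with the highest stromal sums, PBA3 and the unloaded ones, were also the 4 with the highest Cyp1b1. The part of these markers and of the mitochondrial share in the P450 values was not tested beyond the fit with that share as a covariate.

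**Figure D5:**
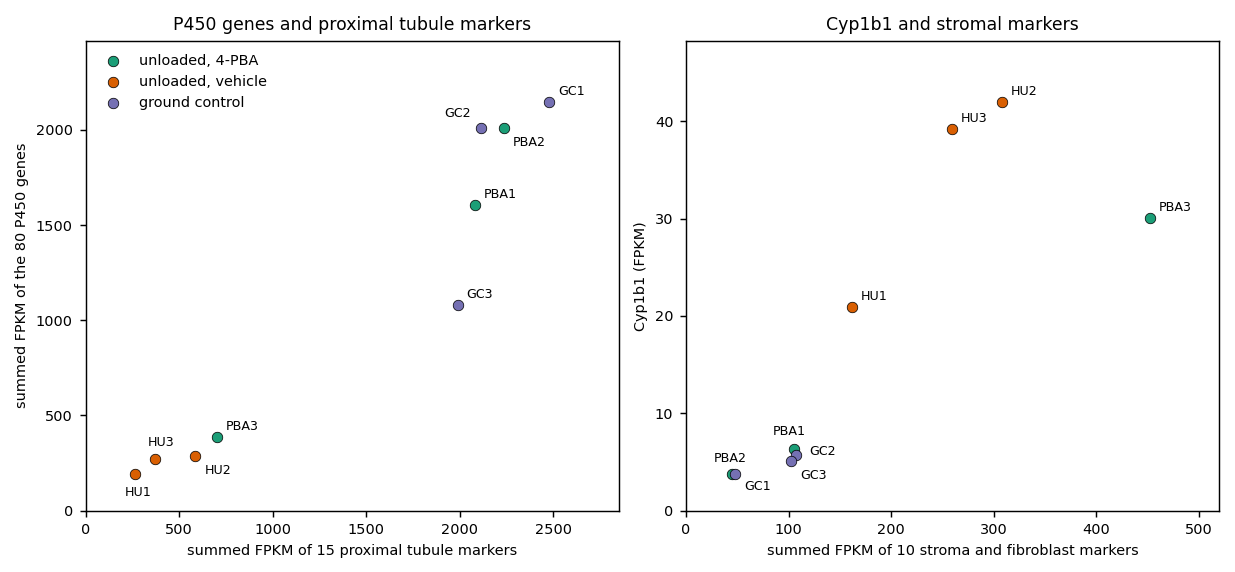
Left, summed FPKM of the 80 P450 genes against that of 15 proximal tubule markers. Right, Cyp1b1 against the summed FPKM of 10 stroma and fibroblast markers. Each point is a library, and PBA3 lies near the unloaded libraries in the left panel and to the right of them in the right panel.

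Among 14 liver markers the sums were 30.9 to 113 FPKM with 4-PBA, 22.6 to 222 FPKM in unloaded mice and 73.6 to 123 FPKM in ground controls. Of these 14, 3 to 8 were at 0 in the 4-PBA libraries, 1 to 3 in the unloaded libraries and 2 to 7 in the ground controls. Of 8 tested, Alb alone passed: it rose with unloading, as did 5.32% of all genes tested, and fell with 4-PBA, as did 1.53%. The list was mixed: without overlap, 2 of the 8 were higher in unloaded mice and 2 lower. The lower ones were Ttr, at 16.2, 17.7 and 6.41 FPKM against 51.0, 43.0 and 51.0 FPKM in ground controls, and Serpina1a. HU1 had the sum of 222, with 42.6 FPKM of albumin (Alb). Of the 51 untested P450 genes, 4 had reads in HU1. Cyp2a12 had 0.727, 0.558 and 0.128 FPKM in unloaded mice and 0 in the other 6 libraries, and Cyp2d40 had 1.58 FPKM in HU1 and 0 in the other 8. Cyp3a11, the main drug-metabolising P450 of mouse liver, had 0.559 FPKM in HU1, its highest value, and Cyp4f18 had 5.06 FPKM. Other P450 genes typical of liver, Cyp1a2, Cyp2c29, Cyp2c37, Cyp2c50, Cyp2c54, Cyp2c70 and Cyp3a25, were listed at 0 in HU1. The part of liver RNA in the P450 values was not tested. Macrophage markers summed to 63.6 to 128 FPKM with 4-PBA, 27.6 to 66.4 FPKM in unloaded mice and 49.8 to 70.9 FPKM in ground controls. None of 9 tested passed in either comparison. Of 10 distal tubule and collecting duct markers Slc12a3 fell with unloading and rose with 4-PBA, where 4.9% of all genes tested fell and 1.16% rose. Without overlap, 4 of the 10 were lower in unloaded mice and 0 higher, where 19.4% and 18.3% of all genes tested were. The 10 markers summed to 327 to 1020 FPKM with 4-PBA, 224 to 367 FPKM in unloaded mice and 440 to 624 FPKM in ground controls. Adipocyte markers summed to 83.8 to 469 FPKM with 4-PBA, 66.8 to 107 FPKM in unloaded mice and 86.6 to 587 FPKM in ground controls, with none of 7 past the threshold.

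Many of the genes lie in clusters of copies. On chromosome 4 the 8 Cyp2j genes span 96027534 to 96664154, and the Cyp4a genes with Cyp4b1 span 115242084 to 115647723. Of the 13 tested genes on that chromosome, 7 fell with unloading (4.9% of all genes tested fell) and 2 were higher with 4-PBA (1.16% of all were higher). On chromosome 15 the 8 Cyp2d genes span 82370527 to 82794294, with 4 tested, 3 that fell with unloading and 2 higher with 4-PBA. Within it Cyp2d22, at the left end, did not pass. Neighbours thus did not all move together. The 15 Cyp2c genes on chromosome 19 held a single tested gene, Cyp2c23.

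Genes that serve P450 enzymes or share their pathways were also examined. Among 15 genes of electron transfer and haem supply, Pgrmc1, Alad, Urod and Ppox fell with unloading and none rose. Of all genes tested, 4.9% fell and 5.32% rose. Without overlap, 8 of the 15 were lower in unloaded mice and 1, Cyb5b, was higher, where 19.4% and 18.3% of all genes tested were. Alad, an early enzyme of haem synthesis, had 27.2, 27.6 and 16.9 FPKM in unloaded mice, against 56.9, 48.4 and 64.6 FPKM in ground controls (log2 difference -1.23, limma adjusted p = 0.0331). Ppox, a late one, had 2.45, 2.49 and 0.522 FPKM in unloaded mice, against 6.75, 4.53 and 10.3 FPKM in ground controls (log2 difference -1.57, limma adjusted p = 0.0372). Pgrmc1, which binds haem and P450 enzymes, had 43.9, 32.0 and 33.9 FPKM in unloaded mice, against 70.1, 93.1 and 66.6 FPKM in ground controls (log2 difference -1.04, limma adjusted p = 0.0479). Por, the P450 reductase itself, had 12.7, 24.6 and 21.04 FPKM in unloaded mice, against 46.2, 42.2 and 30.7 FPKM in ground controls, without overlap, and did not pass (log2 difference -1.02, limma adjusted p = 0.0730). With 4-PBA 0 of the 15 passed in either direction. Their median log2 difference was -0.62 for unloading and 0.51 for 4-PBA, against -0.03 and 0.02 over all genes tested.

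Among 16 receptors and transcription factors known to control P450 genes, 12 were tested and none rose with unloading, where 5.32% of all genes tested rose. Hnf4a, a factor of tubule and liver identity and one of the highest of the list, had 34.9, 60.8 and 54.9 FPKM in unloaded mice, against 58.6, 46.7 and 39.7 FPKM in ground controls, with overlapping groups. Nr1h4, also among the highest, had 14.0, 15.8 and 14.3 FPKM in unloaded mice, against 34.7, 36.0 and 30.1 FPKM in ground controls. Its groups did not overlap, and it did not pass (log2 difference -1.14, limma adjusted p = 0.123). Genes of this list went in both directions. Ppara, the receptor behind Cyp4a induction, had 3.41, 2.51 and 3.57 FPKM in unloaded mice, against 0.536, 0.860 and 1.5 FPKM in ground controls and did not pass (log2 difference 1.10, limma adjusted p = 0.0534), with each unloaded library above each ground control. With 4-PBA 0 of 12 passed.

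Among 19 other enzymes of arachidonic acid and epoxide metabolism, 13 were tested. With unloading 1 of the 13 passed as lower and 1 as higher, where 4.9% and 5.32% of all genes tested did. Without overlap, 2 were lower in unloaded mice and 2 higher, where 19.4% and 18.3% of all genes tested were. Ephx2, the soluble epoxide hydrolase that breaks down P450 epoxides, fell: it had 22.2, 43.5 and 31.3 FPKM in unloaded mice, against 137, 147 and 102 FPKM in ground controls (log2 difference -1.99, limma adjusted p = 0.0287). Ptgis, the prostacyclin synthase of vessel walls and itself a P450 protein of another symbol, rose: it had 9.20, 26.9 and 11.3 FPKM in unloaded mice, against 1.22, 1.82 and 2.67 FPKM in ground controls (log2 difference 2.42, limma adjusted p = 0.0348). With 4-PBA neither passed, nor did any other of the 13. In PBA3 Ptgis had 12.4 FPKM, against 1.93 and 2.14 FPKM in PBA1 and PBA2. Genes with a Cyp symbol and a family number of 5 or above numbered 18, of which 8 were tested and 0 passed in any comparison. For unloading, 3 of the 8 had an unadjusted limma p under 0.05, as had 29.8% of all genes tested. The highest of the 18, Cyp7b1, an oxysterol hydroxylase, had 18.8, 5.49 and 7.76 FPKM in unloaded mice, against 108, 89.0 and 35.0 FPKM in ground controls, without overlap (log2 difference -2.76, limma adjusted p = 0.0682).

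The 51 genes that were not tested had at most 5.06 FPKM in any library. Of these, 18 were at 0 throughout, and 9 reached 1 FPKM in some library. All 9 Cyp3a genes, the main drug-metabolising P450 genes of liver and gut, were among the untested, with at most 0.649 FPKM. Cyp2r1, which hydroxylates vitamin D, had 0.379, 0.515 and 1.21 FPKM with 4-PBA, 0, 0.152 and 0 FPKM in unloaded mice and 0.194, 0.375 and 0.95 FPKM in ground controls. Cyp4f18, a neutrophil enzyme that hydroxylates leukotrienes, had 5.06, 0 and 0.318 FPKM in unloaded mice, against 0.388, 0.293 and 2.66 FPKM in ground controls, so that HU1 alone held nearly all of it among unloaded libraries. Cyp2c66 and Cyp2c55 had 2.64 and 1.29 FPKM in HU2, the library with the fewest reads outside the mitochondrial genome, and 0 in the other 8.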

How the data were processed

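Kidney RNA of 9 libraries was measured by paired-end, strand-marked, poly-A-selected RNA-seq, per the labels' protocols. The authors deposited 1 table of FPKM values per gene, made with CASAVA, cutadapt, HISAT2 and the mm10 genome per the submitters' processing notes; which counter and which versions were used is not given in the sources used here. FPKM times gene length gave whole reads for 100% of values within 0.01, so depth was recovered; the library constant behind the FPKM was 3112370 (HU2) to 24969800 (PBA1) reads, and tracks reads outside the mitochondrial genome rather than total reads. From the deposited FPKM, log2(FPKM + 1) was fitted over all 9 libraries with limma 3.58.1 (R 4.3.3, trended variance) for 12642 genes with at least 1 FPKM in at least 3 libraries. Benjamini-Hochberg adjusted p under 0.05 was the threshold, and the fit was tested on simulated data. Fold changes on this scale understate changes of low genes. Log2 differences are given for genes with an unadjusted p under 0.05, and levels for the others. Members, gene lists and the rule for named genes (all members accounted for, called ones in full, the rest by counts or levels) were chosen with earlier results of these data known. Shared stretches are 100-base windows of the longest coding transcript of a gene found in transcripts of another gene in GENCODE M21, whose gene positions equal the deposited ones for 98.1% of genes. Alternatives changed the scaling, filter, added value, libraries, replicate block, mitochondrial covariate and tool. The result of 1 gene of these lists is not reported here.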

Additional observations from a re-analysis of the deposited data

How the results depend on the processing

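The counts of P450 genes past the threshold depended most on single libraries, on the filter and on the mitochondrial share. For unloaded against ground control, 14 genes passed, 3 with no filter on low values, 1 with the mitochondrial share as a covariate, and 1 to 18 when single libraries were left out. For 4-PBA against unloaded, 4 passed. The count was 7 with scaling by total reads, 1 with 0.1 added before the logarithm, 2 with limma-voom on recovered reads, 16 with library weights and 15 without both GC3 and PBA3. It was 0 in limma with no filter, with the 6 libraries alone and with the covariate, and 0 to 15 when single libraries were left out. With the replicate block 13 and 2 genes passed in these comparisons. Correlations of deviations between libraries of equal number ran between -0.20 (GC2 and HU2) and 0.29 (GC3 and PBA3). They were not set against libraries of unequal number, so they cannot show whether the numbers pair the libraries. The 4-PBA against ground control count was 0 under every alternative run, with 0 to 9 at an unadjusted p under 0.05. No called gene reversed; of the others, Cyp4v3 had -0.0504 for unloading under scaling by total reads and Cyp2j5 had -0.21 for 4-PBA with the covariate. Scaling by total reads shifted the median log2 difference of all genes to -0.78 for unloading and 0.71 for 4-PBA, while scaling to non-mitochondrial reads shifted it to 0.18 and -0.12. The causes were not tested, and leaving out libraries also leaves fewer samples. The mitochondrial share differs between the groups, so the covariate and the groups cannot be fully told apart. Depth limits values below 0.482 FPKM for a gene of 2000 bases in HU2.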
